A study of Mus musculus with 24 samples.

Results

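The comparison described here asks whether the left ventricle of Balb/C mice labelled TK answered angiotensin II (AngII) differently from that of wild-type Balb/C mice. It is the difference of 2 differences, (TK AngII minus TK Sham) minus (WT AngII minus WT Sham), called the interaction below, and it was computed for every gene on a log2 scale. A value below 0 means a smaller rise, or a larger fall, in TK ventricles than in WT ventricles. All 12 Balb/C arrays of the 24 arrays in the series entered it, chosen by their titles, with 3 arrays in each of 4 groups. Of 45281 probes, 19783 had a detection p-value below 0.05 on at least 3 of the 12 arrays, and 10669 genes were tested, each by its brightest kept probe.

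The series profiled left ventricle of male mice on Illumina bead arrays, 1 array a sample, after an infusion of 2 weeks. The 4 groups were TK mice (genotype given as Bmx deficient) that received AngII, TK mice that received NaCl (Sham), wild-type (WT) mice that received AngII and WT mice that received NaCl, all of strain Balb/C. The other 12 arrays held the same design in C57Bl/6J mice, with deficient mice named KO. What TK stands for, the ages of the mice and whether each array came from a separate animal are not given in the sources used here, so a p-value here reflects variation among these samples only, and that variation may be technical.

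Angiotensin II is the effector peptide of the renin-angiotensin system; it raises blood pressure, and its sustained infusion in mice is a common model of cardiac hypertrophy and fibrosis. In such hearts, myocytes switch on natriuretic peptides and other stress genes, while fibroblasts and macrophages deposit and remodel collagen-rich matrix. Bmx is a non-receptor tyrosine kinase of the TEC family, found in arterial endothelium and some blood and epithelial cells, and it acts downstream of phosphoinositide 3-kinase, integrins and cytokine receptors.

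The arrays had median raw signals between 95.3 and 110.2 with 17222 to 18592 detected probes each. After normalization, replicates correlated at 0.985 or more across the genes tested. The 3 WT AngII arrays detected 18241 to 18592 probes, and the other 9 arrays detected 17222 to 17717. Summed linear signal of 8 measured cardiomyocyte markers of 9 was 102929 to 110812 in TK AngII, 105856 to 108146 in TK Sham, 97159 to 106197 in WT AngII and 103044 to 113304 in WT Sham, and 0 of the 8 passed the test of the interaction. Bmx itself was measured by 1 kept probe of 4. Bmx read 5.79, 6.06 and 5.85 (log2) on the TK AngII arrays and 5.82, 5.61 and 5.75 on the TK Sham arrays, against 5.60, 5.66 and 5.29 on the WT AngII arrays and 5.57, 5.76 and 5.73 on the WT Sham arrays. The TK arrays were not below the WT arrays on this probe, and the interaction was 0.35 ± 0.20 (SE, limma adjusted p = 0.436). The other 3 Bmx probes were detected on no array. Which part of Bmx is altered in TK mice is not given in the sources used here, so these probes do not check the genotype, and TK and WT are used throughout as the labels give them.

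The AngII responses of the genotypes differed for 223 of the 10669 genes (2.09%) at a limma adjusted p below 0.05. Of these, 162 (1.52%) had an interaction below 0 and 61 (0.572%) one above 0. The 162 genes were all higher on average in WT AngII than in WT Sham, with a median WT response of 1.61, while their median TK response was 0.25 on the log2 scale. Over all genes tested the median responses were -0.05 in TK and -0.06 in WT. The same 162 genes were lower in TK than in WT under AngII, with a median log2 difference of -1.23, and their median genotype difference in Sham was 0.05. Among the 61 genes with an interaction above 0, 59 were lower on average in WT AngII than in WT Sham; their median response was -0.12 in TK and -1.17 in WT. The response was larger in size in WT than in TK for 158 of the 162 genes and for 56 of the 61 genes, against 66.0% of all genes tested. Taken alone, AngII against Sham was called for 1422 genes in TK (13.3%) and 3965 in WT (37.2%), and TK against WT under AngII for 1140 (10.7%). Between TK Sham and WT Sham, limma called 0 of 10669 genes (0%), with 1134 at an unadjusted p below 0.05.

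**Figure D1:**
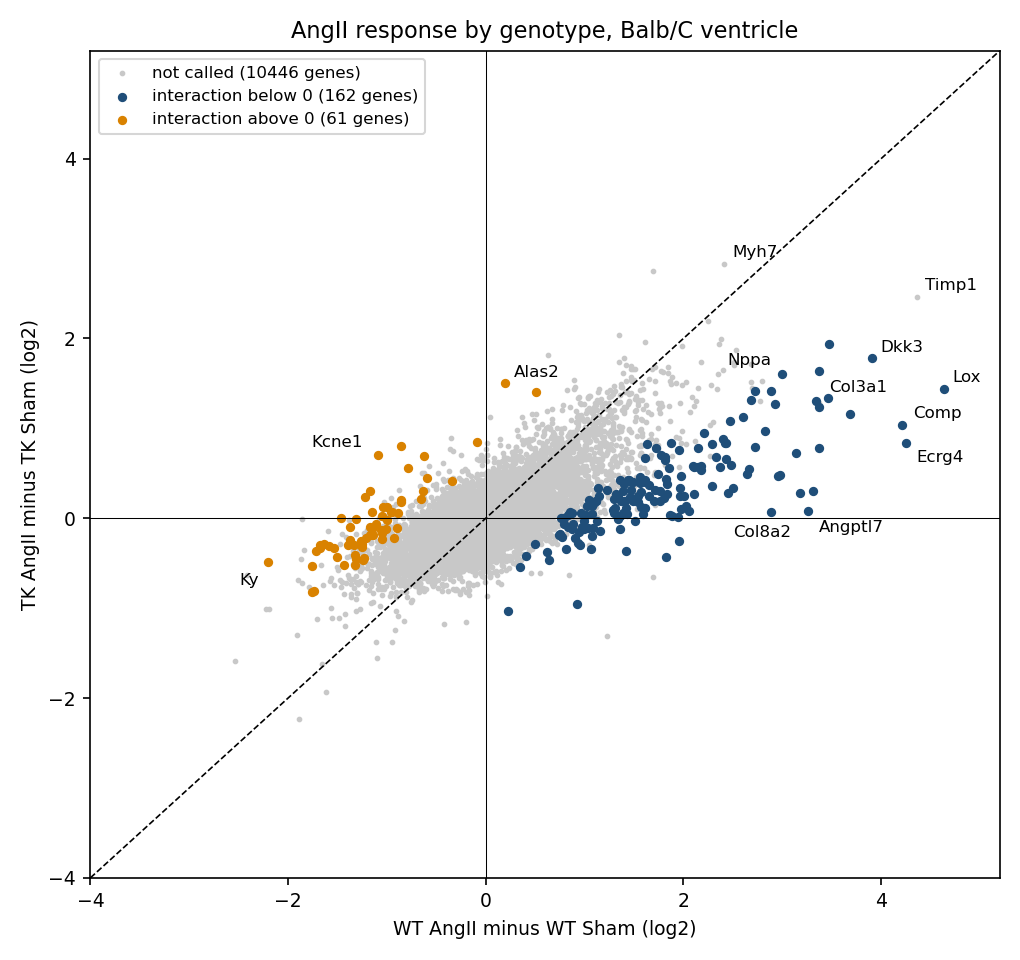
AngII response of each gene in TK ventricles (vertical axis, TK AngII minus TK Sham, log2) against that in WT ventricles (horizontal axis, WT AngII minus WT Sham, log2), with the line of equal response dashed. The 162 genes called below 0 lie at right under the line and the 61 genes called above 0 lie mostly at left above it; for the 30 called genes undetected in at least 1 group the plotted difference is not a measured size.

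Both counts depended on how the arrays were scaled and on which arrays entered. With the median of all probes equalized across arrays, in place of quantile normalization, the interaction of the median gene moved to -0.385 and 766 genes were called, 763 below 0 and 3 above 0. With scaling to the median of the kept probes, added after seeing the data, the median gene was at 0.06 and 228 genes were called, 157 below 0 and 71 above 0. Without WT AngII array 1 the count was 467, and without WT AngII array 2 or 3 it was 89 or 74. It was 91 or 145 without TK AngII array 1 or 2, 138 or 128 without TK Sham array 1 or 2, and 119 without WT Sham array 1. Of the 223 called genes, 23, all below 0, met the detection filter only through the WT AngII arrays, where they are high; such a gene had to differ, so its p-value is not given, and its call is included in the counts as a description. Of the 223, 30 had a probe detected on no array of at least 1 group; among the 8274 genes detected on all 12 arrays, a restriction added after seeing the data, 164 (1.98%) were called, 106 below 0 and 58 above 0.

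The smallest p-value belonged to Ecrg4, which encodes augurin, a secreted peptide precursor. Ecrg4 read 4.92, 5.33 and 5.67 on the TK AngII arrays and 4.56, 4.42 and 4.45 on the TK Sham arrays, against 8.24, 8.70 and 8.90 on the WT AngII arrays and 4.46, 4.32 and 4.30 on the WT Sham arrays. The WT AngII arrays stood far above all others, and no array of the TK AngII group reached them. The probe was not detected in either Sham group, so the rises are bounds, at least 1.43-fold in TK and at least 13.9-fold in WT, with an adjusted p of 8.19e-06 for the interaction in limma. Under AngII, where both genotypes were detected on 3 of 3 arrays, Ecrg4 was lower in TK, with a TK minus WT difference of -3.30 on the log2 scale (limma adjusted p = 7.87e-08).

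The promoters of 4 genes are shown because they stand for the kinds of response described: Ecrg4 for the smallest p-value, Col3a1 for the fibrillar collagens, Nppa for the myocyte stress genes and Ky for the genes that fell in WT. Sequences are from RefSeq on GRCm38.p6, 250 bases before to 50 after the annotated start, all on the plus strand: chr1:43730352-43730651 for Ecrg4, chr1:45311288-45311587 for Col3a1, chr4:148000472-148000771 for Nppa and chr9:102505888-102506187 for Ky. Capitals mark exact matches to a TEAD site (CATTCC) or a TATA box (TATAAA).
Ecrg4: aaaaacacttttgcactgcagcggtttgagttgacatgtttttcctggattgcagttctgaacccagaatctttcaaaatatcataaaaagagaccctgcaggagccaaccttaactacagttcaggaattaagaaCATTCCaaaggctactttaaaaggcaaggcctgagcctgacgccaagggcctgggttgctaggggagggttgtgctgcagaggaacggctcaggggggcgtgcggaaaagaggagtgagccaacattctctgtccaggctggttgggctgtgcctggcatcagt
Col3a1: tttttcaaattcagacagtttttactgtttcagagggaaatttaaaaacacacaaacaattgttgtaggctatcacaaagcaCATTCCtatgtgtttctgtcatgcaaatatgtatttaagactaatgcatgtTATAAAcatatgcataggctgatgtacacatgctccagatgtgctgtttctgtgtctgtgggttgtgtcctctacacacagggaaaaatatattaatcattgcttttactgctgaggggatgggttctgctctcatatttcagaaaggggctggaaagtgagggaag
Nppa: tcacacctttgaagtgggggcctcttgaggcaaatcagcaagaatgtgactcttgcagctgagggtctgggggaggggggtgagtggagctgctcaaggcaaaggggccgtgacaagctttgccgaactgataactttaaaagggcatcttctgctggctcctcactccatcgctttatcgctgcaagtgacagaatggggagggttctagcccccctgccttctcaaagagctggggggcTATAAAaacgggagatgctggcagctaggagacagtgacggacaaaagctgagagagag
Ky: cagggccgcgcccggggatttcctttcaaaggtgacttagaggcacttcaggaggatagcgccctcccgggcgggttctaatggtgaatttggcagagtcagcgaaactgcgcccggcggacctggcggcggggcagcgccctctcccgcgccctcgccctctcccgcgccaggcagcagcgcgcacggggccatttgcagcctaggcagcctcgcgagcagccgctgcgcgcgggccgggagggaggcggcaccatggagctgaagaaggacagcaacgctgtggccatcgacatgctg
Ecrg4 held 1 TEAD site, and Col3a1 held 1 TEAD site and 1 match to the TATA box letters, at -117 from the start. Nppa held 1 TATA box beginning 9 bases before the start, and Ky held none of the letters searched. On both strands, the search also covered a STAT site (TTCNNNGAA), an AP-1 site (TGANTCA) and an E-box (CACGTG), which the 4 promoters lacked. Of 32851 RefSeq mouse promoters of this length, 14.7% held a TEAD site and 13.6% a TATA box. Among promoters of the genes called below 0 that matched by symbol (153 promoters of 117 genes), 18.3% held a TEAD site and 14.4% a TATA box, and among those of the genes called above 0 (66 promoters of 48 genes) the shares were 18.2% and 6.06%. Promoters of all genes tested held these letters in 12.4% and 7.85% of cases. These matches describe letters in the window and were not tested.

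The largest sizes among genes detected in all groups belonged to secreted proteins of the matrix. Lox, the lysyl oxidase that cross-links collagen and elastin, read 6.61, 7.23 and 8.02 on the TK AngII arrays and 5.93, 5.84 and 5.76 on the TK Sham arrays, against 9.53, 10.73 and 10.14 on the WT AngII arrays and 5.07, 5.49 and 5.93 on the WT Sham arrays. All TK AngII arrays lay above the TK Sham arrays and below the WT AngII arrays. Lox rose by 1.44 in TK (limma adjusted p = 0.00757) and by 4.64 in WT, and its interaction was -3.19 ± 0.45 (SE, adjusted p = 0.0014). Comp, cartilage oligomeric matrix protein of the thrombospondin family, read 6.31, 6.10 and 7.03 on the TK AngII arrays and 5.05, 5.63 and 5.64 on the TK Sham arrays, against 9.04, 10.66 and 10.01 on the WT AngII arrays and 6.25, 5.26 and 5.56 on the WT Sham arrays. The WT AngII arrays did not overlap any other group. The interaction of Comp was -3.17 ± 0.49 (adjusted p = 0.00264 in limma), a response 9.01-fold smaller in TK.

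Angptl7, a secreted angiopoietin-like protein, read 6.39, 6.87 and 6.35 on the TK AngII arrays and 6.89, 5.84 and 6.64 on the TK Sham arrays, against 9.80, 10.42 and 9.93 on the WT AngII arrays and 6.05, 7.08 and 7.23 on the WT Sham arrays. The 3 groups other than WT AngII overlapped one another. Its TK response was 0.08 (limma adjusted p = 0.891), its WT response 3.26, and its interaction -3.18 ± 0.42 (adjusted p = 0.000749). Ptn, the heparin-binding growth factor pleiotrophin, read 5.90, 6.29 and 6.78 on the TK AngII arrays and 6.24, 5.64 and 6.24 on the TK Sham arrays, against 8.39, 9.31 and 9.20 on the WT AngII arrays and 5.85, 5.67 and 5.83 on the WT Sham arrays. TK AngII and TK Sham overlapped, and the WT AngII arrays stood alone. Its interaction was -2.90 ± 0.35 (limma adjusted p = 0.000331).

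**Figure D2:**
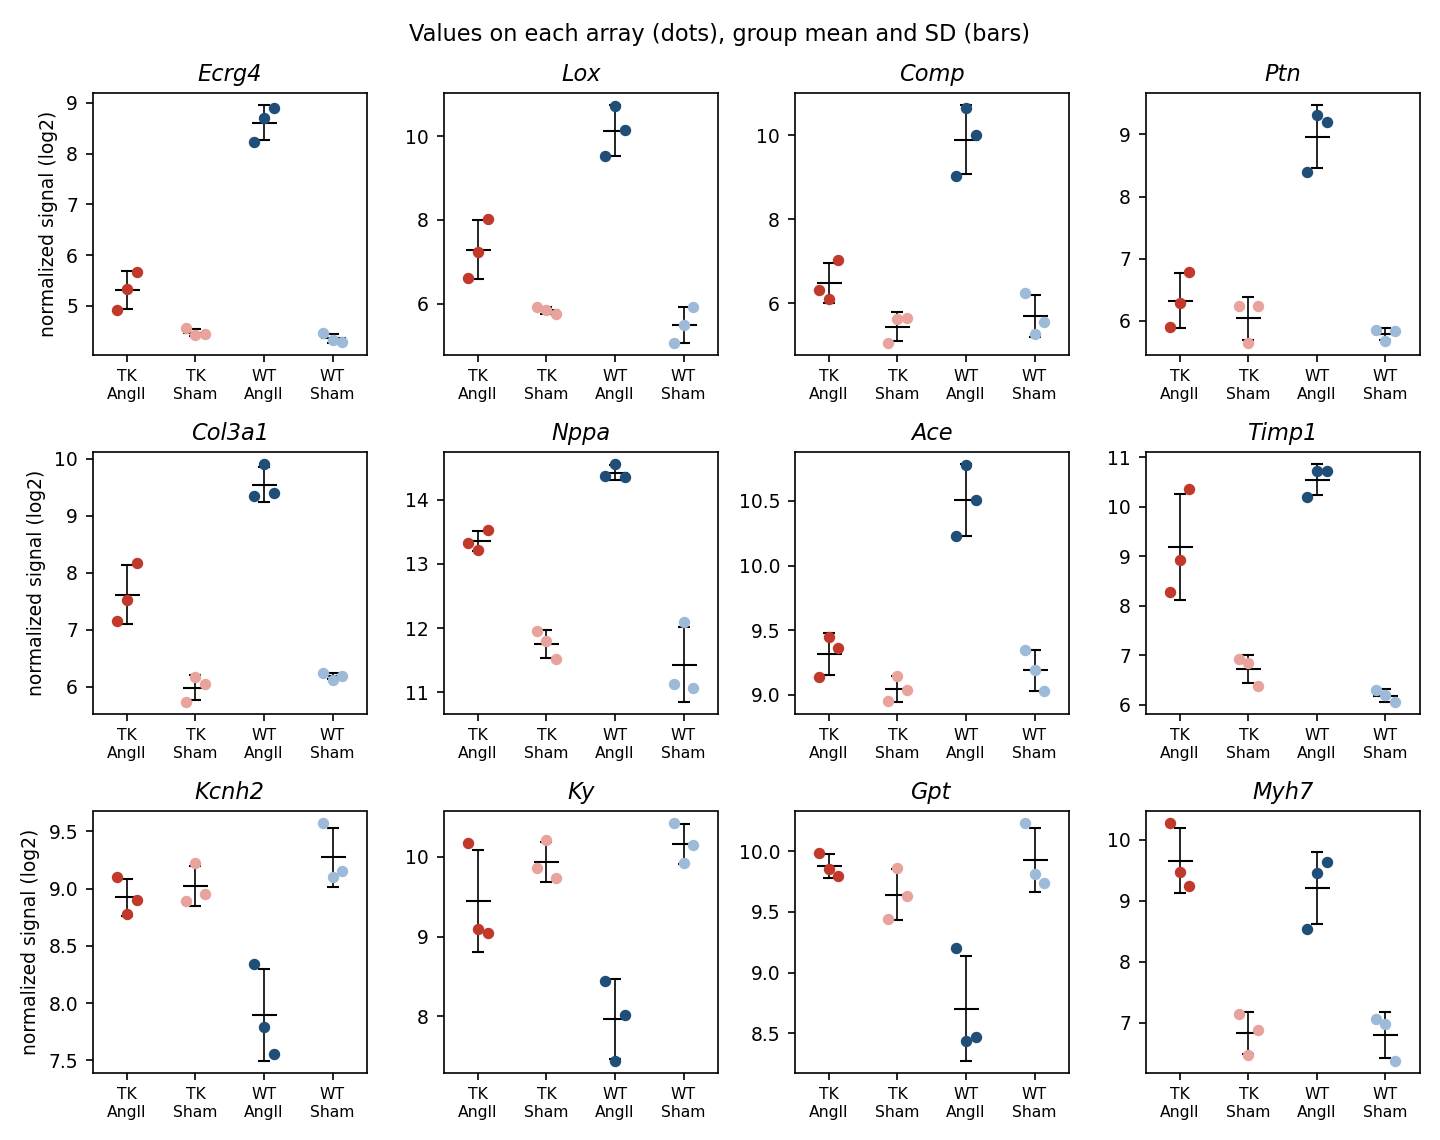
Normalized signal (log2) of 12 named genes on each array of the TK AngII, TK Sham, WT AngII and WT Sham groups; dots are arrays, the long tick is the mean and the bars are the SD of 3 arrays. Ecrg4, Lox, Comp, Ptn, Col3a1, Nppa and Ace are highest on the 3 WT AngII arrays, Kcnh2, Ky and Gpt are lowest there, and Timp1 and Myh7 overlap between TK AngII and WT AngII.

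Of 36 genes listed as collagens and collagen processing, 30 were measured; 11 passed the test below 0 and none above 0, beside the 1.52% and 0.572% of all genes tested, and their median interaction was -0.95 against 0.01 over all genes. The median response of the list was 0.29 in TK and 1.11 in WT. Among the 28 members detected on all 12 arrays, 9 were called and the median was -0.94. Col3a1, a fibrillar collagen chain, read 7.15, 7.52 and 8.17 on the TK AngII arrays and 5.73, 6.16 and 6.05 on the TK Sham arrays, against 9.34, 9.90 and 9.40 on the WT AngII arrays and 6.23, 6.12 and 6.19 on the WT Sham arrays. Both AngII groups lay above their Sham groups, and TK AngII lay wholly below WT AngII. Col3a1 rose by 1.64 in TK (limma adjusted p = 0.000221) and by 3.37 in WT, with an interaction of -1.73 ± 0.31 (adjusted p = 0.00789). Col1a1, the main chain of type I collagen, averaged 8.96 ± 0.47 in TK AngII and 7.69 ± 0.19 in TK Sham, against 10.45 ± 0.40 in WT AngII and 7.53 ± 0.07 in WT Sham (SD, n = 3 each). It rose in both genotypes and its interaction was -1.65 ± 0.31 (limma adjusted p = 0.0115).

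Type VIII collagen, a short-chain network collagen of vessel walls and endothelial basement membranes, has a pair of chains on the array. Col8a1 averaged 9.85 ± 0.53 in TK AngII and 8.51 ± 0.34 in TK Sham, against 11.94 ± 0.34 in WT AngII and 8.47 ± 0.14 in WT Sham (SD, n = 3 each), with an interaction of -2.13 ± 0.34 (limma adjusted p = 0.00319). Every TK AngII array was above the TK Sham arrays and below every WT AngII array. Col8a2 was detected on the 3 WT AngII arrays and on no array of the other groups, so only bounds can be given: under AngII it was at least 6.07-fold lower in TK than in WT, with means of 4.62 in TK AngII and 7.40 in WT AngII. Col5a2, which encodes a chain of the type V collagen that nucleates fibrils, was detected on 2 of 3 TK AngII arrays, on 3 of 3 WT AngII arrays and in neither Sham group; it was lower in TK AngII than in WT AngII, with a log2 difference of -2.40. Col8a2 and Col5a2 were the 2 called collagens kept only through WT AngII. Col14a1, a fibril-associated collagen, had an interaction of -1.46 ± 0.22 (limma adjusted p = 0.00216). The other called members, named after their values were seen, were Col16a1, Col1a2, the lysyl hydroxylase Plod2 and the procollagen proteinase enhancer Pcolce, with interactions of -1.47, -1.37, -1.14 and -1.09 and adjusted p between 0.00303 and 0.0383 in limma. The number of the list called was 7 to 22 over the processing alternatives and the arrays left out.

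Of 53 other matrix and matricellular genes, 40 were measured, and 16 passed the test below 0 and none above 0, beside 1.52% and 0.572% of all genes. The median interaction was -0.92, with medians of 0.26 for the TK response and 1.16 for the WT response. Of the 29 detected on all 12 arrays, 10 were called, and their median was -0.76. Mfap5, a microfibril glycoprotein of elastic fibres, read 8.68, 9.21 and 9.52 on the TK AngII arrays and 7.59, 8.32 and 8.01 on the TK Sham arrays, against 11.13, 11.66 and 11.78 on the WT AngII arrays and 7.82, 7.71 and 7.97 on the WT Sham arrays. It was raised above Sham on every AngII array, with no overlap between the genotypes, and its interaction was -2.53 ± 0.32 (limma adjusted p = 0.000471). Mfap4, a further microfibril-associated protein, had an interaction of -2.14 ± 0.42 (limma adjusted p = 0.0151), and Mfap2 one of -1.39 ± 0.27 (0.0142). Mfap2 was named after its values were seen, as were Ccn4, Fstl1 and the other called members below.

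Cthrc1, a secreted protein of activated fibroblasts, was detected on 1 of 3 TK AngII arrays, on 3 of 3 WT AngII arrays and in neither Sham group; it averaged 4.81 ± 0.55 in TK AngII and 7.30 ± 0.39 in WT AngII (SD, n = 3 each). Postn, periostin, a matricellular protein of activated fibroblasts, read 4.50, 4.79 and 5.0 on the TK AngII arrays and 5.93, 6.37 and 6.31 on the WT AngII arrays. No TK AngII array of Postn reached the WT AngII arrays, and the probe was not detected in WT Sham. The small proteoglycans Fmod, Ogn and Omd, the calcification inhibitor Mgp, Sparc, the CCN proteins Ccn4 and Ccn5, the follistatin-like Fstl1 and Fstl3, and the basement membrane linker Nid1 were the other called members. Among these Ccn4 had the lowest interaction of the members detected in all groups, -2.04 ± 0.40 (limma adjusted p = 0.0152), followed by Fstl1 at -1.64. Ccn2, connective tissue growth factor, did not pass: it read 12.66, 13.38 and 13.40 on the TK AngII arrays and 12.14, 11.83 and 12.56 on the TK Sham arrays, against 13.85, 14.37 and 14.31 on the WT AngII arrays and 12.15, 12.45 and 11.97 on the WT Sham arrays (interaction -1.02 ± 0.32, limma adjusted p = 0.119). Of the 16 called members, 6 were kept only through WT AngII, Cthrc1 and Postn among them. The number of this list called was 8 to 29 over the alternatives.

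Among TGF-beta ligands, receptors and targets, 24 of 35 were measured and 2 were called, both ligands and both below 0, beside 1.52% of all genes, with a list median of -0.46. TGF-beta is the best known inducer of matrix production by fibroblasts. Tgfb2 read 6.43, 6.78 and 7.42 on the TK AngII arrays and 6.33, 6.38 and 6.29 on the TK Sham arrays, against 7.97, 9.54 and 8.73 on the WT AngII arrays and 6.15, 6.12 and 5.99 on the WT Sham arrays (interaction -2.12 ± 0.41, limma adjusted p = 0.0147). Tgfb3 read 7.15, 7.34 and 7.32 on the TK AngII arrays and 7.16, 7.32 and 7.17 on the TK Sham arrays, against 8.40, 9.06 and 8.68 on the WT AngII arrays and 6.88, 7.16 and 7.32 on the WT Sham arrays (interaction -1.54 ± 0.24, limma adjusted p = 0.00258). For Tgfb3 the TK arrays were at one level with and without AngII, while for Tgfb2 each TK AngII array was above the TK Sham arrays. The call of Tgfb3 held under every alternative checked gene by gene and without each array in turn, and that of Tgfb2 was lost under 3 alternatives.

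Fibroblast markers gave 24 measured genes of 26, with 6 called below 0 and none above 0, beside 1.52% and 0.572% of all genes. Their median interaction was -0.59, and of the 22 detected on all arrays 4 were called. Pdgfrl, a secreted protein resembling the PDGF receptor, read 5.48, 5.71 and 6.33 on the TK AngII arrays and 4.83, 5.25 and 5.11 on the TK Sham arrays, against 7.95, 8.15 and 8.28 on the WT AngII arrays and 4.56, 4.64 and 5.05 on the WT Sham arrays. The WT AngII arrays lay close together and above every TK array, and the interaction was -2.60 ± 0.29 (limma adjusted p = 0.000159). Sfrp1, a secreted Wnt inhibitor, averaged 8.69 ± 0.24 in TK AngII and 8.72 ± 0.26 in TK Sham, against 10.27 ± 0.33 in WT AngII and 8.76 ± 0.21 in WT Sham (SD, n = 3 each), and its interaction was -1.54 ± 0.27 (limma adjusted p = 0.0072). Sfrp2, of the same family, was detected on 2 of 3 TK AngII arrays and was lower there than in WT AngII, with a log2 difference of -1.64. Of the 6 called fibroblast markers 1, Sfrp2, met the filter only through WT AngII. Ccdc80 had an interaction of -1.29 ± 0.20 (limma adjusted p = 0.00258), and Meox1 and Olfml3, named after their values were seen, were the other called members. Summed linear signal of 6 defining fibroblast markers was 15434 to 18405 in TK AngII, 13716 to 14174 in TK Sham, 20121 to 25092 in WT AngII and 12165 to 14080 in WT Sham; the part of this difference in the matrix results was not tested. In bulk tissue, fewer cells of a type and less RNA per cell cannot be told apart.

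Further secreted or signalling proteins were among the 15 lowest interactions of called genes detected in every group. Ddah1, which breaks down an endogenous inhibitor of nitric oxide synthase, read 7.79, 7.43 and 8.09 on the TK AngII arrays and 7.16, 7.21 and 7.52 on the TK Sham arrays, against 9.81, 10.90 and 10.46 on the WT AngII arrays and 7.72, 7.22 and 7.36 on the WT Sham arrays (interaction -2.48 ± 0.33, limma adjusted p = 0.000811). Itgbl1, a secreted protein with integrin-beta-like repeats, read 7.28, 7.18 and 7.74 on the TK AngII arrays and 6.88, 6.37 and 6.78 on the TK Sham arrays, against 9.53, 9.91 and 9.94 on the WT AngII arrays and 6.61, 6.65 and 6.70 on the WT Sham arrays (interaction -2.41 ± 0.25, adjusted p = 0.000114 in limma). For both genes the WT AngII arrays were apart from all other arrays. Svep1, an extracellular adhesion protein, the growth factor Clec11a, the Wnt antagonist Nkd2 and Dkk3 of the dickkopf family had interactions of -2.21, -2.17, -2.16 and -2.13. Dkk3 rose in both genotypes, by 1.78 in TK (limma adjusted p = 0.000205) and 3.91 in WT, whereas Svep1 read 6.20 to 6.63 on the TK AngII arrays and 6.65 to 6.70 on the TK Sham arrays.

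Ckmt1, a mitochondrial creatine kinase, read 4.84, 4.39 and 4.80 on the TK AngII arrays and 4.87, 5.48 and 4.96 on the TK Sham arrays, against 6.10, 6.26 and 6.33 on the WT AngII arrays and 4.38, 4.42 and 4.43 on the WT Sham arrays. It was not detected in WT Sham, and its rise in WT was at least 2.67-fold (limma adjusted p of the interaction 0.000126). Slc13a4, a sulfate transporter, was detected on no TK AngII and no WT Sham array; under AngII it was at least 2.29-fold lower in TK than in WT (means 4.45 in TK AngII and 6.00 in WT AngII), and it was kept only through WT AngII.

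Among matrix proteases and their inhibitors, 25 of 35 were measured and 4 were called below 0, beside 1.52% of all genes. The median was -0.44, with -0.01 for the TK response and 0.34 for the WT response. Serpinf1, the secreted serpin also known as pigment epithelium-derived factor, read 11.25, 11.30 and 11.64 on the TK AngII arrays and 10.91, 10.77 and 10.78 on the TK Sham arrays, against 12.67, 13.28 and 13.21 on the WT AngII arrays and 10.94, 11.11 and 10.82 on the WT Sham arrays (interaction -1.52 ± 0.24, limma adjusted p = 0.00295). Mmp23, a membrane-anchored metalloproteinase, the collagen-degrading protease Ctsk and the complement inhibitor Serping1 had interactions of -1.54, -1.20 and -0.92. Timp1, the tissue inhibitor of metalloproteinases, did not pass: it read 8.28, 8.92 and 10.36 on the TK AngII arrays and 6.92, 6.85 and 6.39 on the TK Sham arrays, against 10.19, 10.72 and 10.73 on the WT AngII arrays and 6.31, 6.19 and 6.06 on the WT Sham arrays. TK AngII array 3 lay within the range of the WT AngII arrays, and the interaction was -1.89 ± 0.50 (limma adjusted p = 0.0635).

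The myocyte stress genes were mixed. Of 24 hypertrophy genes, 21 were measured, and 3 were called below 0 and none above 0, beside 1.52% and 0.572% of all genes tested. The median response was 0.63 in TK and 1.35 in WT, with a median interaction of -0.45. Nppa, which encodes atrial natriuretic peptide, read 13.33, 13.22 and 13.53 on the TK AngII arrays and 11.95, 11.79 and 11.51 on the TK Sham arrays, against 14.37, 14.55 and 14.35 on the WT AngII arrays and 11.13, 12.10 and 11.06 on the WT Sham arrays. Nppa rose in both genotypes, and the AngII groups did not overlap. Its interaction was -1.38 ± 0.31 (limma adjusted p = 0.029), a call lost without 8 of the 12 arrays in turn and under 4 alternatives. Xirp2, an actin-binding protein of the intercalated disc, read 10.92, 11.50 and 11.35 on the TK AngII arrays and 9.33, 9.32 and 9.32 on the TK Sham arrays, against 12.47, 13.39 and 13.14 on the WT AngII arrays and 9.28, 9.37 and 9.92 on the WT Sham arrays (interaction -1.54 ± 0.31, limma adjusted p = 0.0174).

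Other classic hypertrophy genes did not pass. Myh7, the fetal beta-myosin heavy chain, read 10.27, 9.47 and 9.24 on the TK AngII arrays and 7.14, 6.46 and 6.88 on the TK Sham arrays, against 8.54, 9.46 and 9.63 on the WT AngII arrays and 7.05, 6.97 and 6.37 on the WT Sham arrays. Myh7 rose by 2.83 in TK (limma adjusted p = 3.85e-05) and by 2.41 in WT (2.07e-05), with an interaction of 0.42 ± 0.42 (adjusted p = 0.691), of which the sign turned with scaling to a common median (-0.01). Nppb, which encodes B-type natriuretic peptide, read 13.66, 14.58 and 14.65 on the TK AngII arrays and 14.65 on each WT AngII array. It was the second brightest probe on TK AngII array 3 and on the 3 WT AngII arrays, and quantile normalization gives equal ranks an equal value, so the scale does not separate these arrays. Before normalization its signal was 13065, 25967 and 26415 on the TK AngII arrays, against 29778, 25274 and 27881 on the WT AngII arrays, and the groups overlapped. Its interaction was -0.33 ± 0.30 (limma adjusted p = 0.658). Skeletal alpha-actin Acta1 and adult alpha-myosin Myh6 had interactions of 0.13 and -0.08 (limma adjusted p = 0.811 and 0.87), and that of Myh6 was 0.30 with scaling to the median of the kept probes. Of 20 measured genes of the adult sarcomere and calcium handling, 1 was called, Cacnb2, above 0, beside 0.572% of all genes. Among atrial markers 2 of 4 were measured, Nppa and Myl4, and their summed linear signal was 9813 to 12069 in TK AngII, 3067 to 4187 in TK Sham, 21266 to 24299 in WT AngII and 2284 to 4553 in WT Sham. Nppa made up nearly all of this sum, which therefore says little about Myl4, and of the 2 only Nppa was called.

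The counts of regulators below stand beside 2.09% of all genes called. Of 21 renin-angiotensin genes, 11 were measured and Ace passed the test. Ace, the enzyme that makes angiotensin II, read 9.14, 9.45 and 9.36 on the TK AngII arrays and 8.95, 9.15 and 9.04 on the TK Sham arrays, against 10.23, 10.78 and 10.51 on the WT AngII arrays and 9.35, 9.19 and 9.03 on the WT Sham arrays. The WT AngII arrays lay above all others, and the interaction was -1.05 ± 0.22 (limma adjusted p = 0.0201). Of 22 measured TEC kinases and partners 0 passed in limma, with a median interaction of -0.03. Of 26 measured genes of the IL-6 family and STAT3, Socs2, a feedback inhibitor of cytokine and growth hormone signalling, passed with -0.98 ± 0.22 (limma adjusted p = 0.0279), and the median was -0.08. Of 25 measured immediate-early genes, the zinc finger factor Egr2 passed: it read 5.27, 5.83 and 6.01 on the TK AngII arrays and 4.93, 4.82 and 4.98 on the TK Sham arrays, against 6.88, 8.15 and 7.81 on the WT AngII arrays and 4.73, 5.03 and 4.92 on the WT Sham arrays (interaction -1.93 ± 0.36, limma adjusted p = 0.0115). Among 30 measured vascular growth factors and receptors, the receptor Egfr was called below 0 (-0.98 ± 0.20, limma adjusted p = 0.0179) and the ligand Fgf9 above 0 (1.02 ± 0.22, 0.0253). Egfr was lost under 0 alternatives and without 4 arrays in turn, and Fgf9 under 5 and without 6. Natriuretic peptide and nitric oxide genes gave 3 calls below 0 among 22 measured, Nppa, Ddah1 and the phosphodiesterase Pde1a (-1.21 ± 0.25, limma adjusted p = 0.0174).

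Macrophage and myeloid markers had a median interaction of -0.73 over 28 measured genes of 36, with medians of 0.28 for TK and 1.07 for WT, and 4 were called below 0. The median TK minus WT difference of the list was 0.22 in Sham and -0.40 under AngII, so part of the interaction lay in Sham. Counts in this paragraph stand beside 1.52% of all genes called below 0 and 0.572% called above 0. Ms4a7 read 6.32, 7.07 and 7.64 on the TK AngII arrays and 5.59, 5.50 and 5.99 on the TK Sham arrays, against 8.20, 7.94 and 8.10 on the WT AngII arrays and 5.44, 5.28 and 5.47 on the WT Sham arrays. The TK AngII arrays were spread widely and the WT AngII arrays lay close together, with no overlap. Its interaction was -1.37 ± 0.34 (limma adjusted p = 0.0483), and those of the Fc receptor Fcgr3, Ms4a6d and the lipid receptor Trem2 were -1.41, -1.26 and -1.09. Each of these 4 calls was lost without at least 8 of the 12 arrays in turn and under 4 or more alternatives. For Fcgr3, TK minus WT was 0.63 in Sham (limma adjusted p = 0.423) and -0.78 under AngII (0.0447). Summed linear signal of 4 measured defining macrophage markers of 5 was 1084 to 1797 in TK AngII, 1132 to 2188 in TK Sham, 1721 to 2489 in WT AngII and 646 to 1275 in WT Sham. Of these 4 markers, 0 were called. Of 23 measured chemokines and cytokines 1 passed, Cx3cl1, with a median of -0.49; its call was lost under 8 of 13 alternatives and without 10 of the 12 arrays in turn. Of 27 measured cell cycle genes 0 passed below 0 and Cdkn1c, an inhibitor of cyclin-dependent kinases, passed above 0 (0.94 ± 0.21, limma adjusted p = 0.0264), with a list median of -0.53.

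Genes with an interaction above 0 had mostly fallen in WT. Potassium channels, which carry the repolarizing and background currents of myocytes, had 17 measured members of 21, 4 called above 0 beside the 0.572% of all genes, none called below 0, and a median interaction of 0.68 (TK response -0.07, WT response -0.73). Kcnh2, the pore subunit of the rapid delayed rectifier, read 9.10, 8.78 and 8.90 on the TK AngII arrays and 8.89, 9.22 and 8.95 on the TK Sham arrays, against 8.34, 7.79 and 7.56 on the WT AngII arrays and 9.57, 9.10 and 9.15 on the WT Sham arrays. The WT AngII arrays were below every other array, and the interaction was 1.28 ± 0.27 (limma adjusted p = 0.0212). Kcnk3, a background channel, and Abcc9, the sulphonylurea receptor subunit of ATP-sensitive channels, had interactions of 1.12 and 0.86 (limma adjusted p = 0.0242 and 0.0488). Kcne1, the beta subunit of the slow delayed rectifier, had the largest value, 1.79 ± 0.39 (limma adjusted p = 0.0242), on its brightest probe, but its other 2 kept probes gave -0.10 and 0.22, so the gene is uncertain. With scaling to a common median 1 of the 17 channel genes was called, and with no filter on detection 0 of 20 were called. Kcnh2 and Kcnk3 were each lost without 5 of the 12 arrays in turn, Kcne1 without 6 and Abcc9 without 10.

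Ky, a muscle protein of the Z-disc region, read 10.18, 9.10 and 9.05 on the TK AngII arrays and 9.86, 10.21 and 9.73 on the TK Sham arrays, against 8.44, 7.44 and 8.01 on the WT AngII arrays and 10.42, 9.92 and 10.15 on the WT Sham arrays. WT AngII lay below all other arrays, and TK AngII array 1 lay at the level of the Sham arrays. Its interaction was 1.71 ± 0.40 (limma adjusted p = 0.0363), a call lost under 7 of 13 alternatives and without 7 of the 12 arrays in turn. Gpt, alanine aminotransferase, read 9.99, 9.85 and 9.80 on the TK AngII arrays and 9.44, 9.86 and 9.63 on the TK Sham arrays, against 9.20, 8.44 and 8.47 on the WT AngII arrays and 10.23, 9.81 and 9.74 on the WT Sham arrays (interaction 1.46 ± 0.28, limma adjusted p = 0.0126). The cell adhesion protein Cntn2, the dioxygenase-family protein Alkbh7, the receptor tyrosine kinase Ephb1, the laminin chain Lamb3 and the integrin subunit Itgb6 had interactions of 1.65, 1.48, 1.36, 1.36 and 1.34. In the same order, their calls were lost under 2, 2, 5, 4 and 1 alternatives and without 5, 4, 6, 3 and 0 arrays in turn. The kinase Stk16 and the tubulin Tuba4a differed in both directions: Stk16 rose by 0.70 in TK (limma adjusted p = 0.0181) and differed by -0.63 in WT (0.0118), and Tuba4a rose by 0.56 in TK (0.036) and differed by -0.78 in WT (0.00169). Cacnb2, a calcium channel beta subunit, had 1.38 ± 0.31 (limma adjusted p = 0.031) and the transporter Slc41a3 1.30 ± 0.29 (0.0285). Cacnb2 was lost under 5 alternatives and without 9 arrays in turn, and Slc41a3 under 4 and without 8. Dpysl4 was called at 1.47 on its brightest probe, while its other 2 kept probes gave 0.11 and -0.25.

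Alas2, the first enzyme of haem synthesis in red cell precursors, was 1 of 5 genes called above 0 with a larger response in TK than in WT, rising by 1.51 in TK (limma adjusted p = 0.000263) with 0.20 in WT (0.483). It read 9.41, 9.57 and 9.90 on the TK AngII arrays and 8.11, 7.85 and 8.40 on the TK Sham arrays, against 9.64, 8.79 and 9.01 on the WT AngII arrays and 8.82, 8.87 and 9.15 on the WT Sham arrays. The TK Sham arrays were the lowest, and the AngII groups overlapped. The call of Alas2 was lost under 5 of 13 alternatives and without 8 of the 12 arrays in turn. Summed linear signal of 3 measured red cell markers was 23088 to 25909 in TK AngII, 14483 to 21855 in TK Sham, 20997 to 23463 in WT AngII and 19209 to 24938 in WT Sham, and the part of blood in the Alas2 value was not tested.

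Of 40 genes of fatty acid oxidation 35 were measured, 2 were called above 0, beside 0.572% of all genes, and none below 0, with a median interaction of 0.40 and medians of -0.42 for TK and -0.81 for WT. Decr1, an auxiliary enzyme for unsaturated fatty acids, read 10.02, 9.96 and 9.78 on the TK AngII arrays and 9.95, 10.21 and 10.38 on the TK Sham arrays, against 9.29, 8.91 and 8.73 on the WT AngII arrays and 10.42, 10.25 and 10.05 on the WT Sham arrays (interaction 1.00 ± 0.24, limma adjusted p = 0.0373). Crat, carnitine acetyltransferase, fell in both genotypes, with a response of -0.52 in TK (limma adjusted p = 0.0146) and -1.32 in WT, with an interaction of 0.80 ± 0.18 (0.0319). Both calls were lost under either median scaling (0 called), and without 8 arrays in turn for Decr1 and 9 for Crat. Oxidative phosphorylation had 0 of 48 measured genes called in limma and a median of 0.20, which was -0.08 with scaling to a common median. Relative to the median gene under that scaling, collagens were at -1.01, other matrix genes at -0.94, potassium channels at 0.66, fatty acid oxidation at 0.40 and oxidative phosphorylation at 0.31.

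Smooth muscle and pericyte genes had a median of -0.02 over 24 measured, with 2 called above 0, beside 0.572% of all genes. These were Abcc9 and Smtn, a cytoskeletal protein of contractile smooth muscle (1.13 ± 0.21, limma adjusted p = 0.0108). Summed linear signal of 5 measured markers of this class was 11809 to 16451 in TK AngII, 11756 to 21660 in TK Sham, 7887 to 8237 in WT AngII and 14802 to 16003 in WT Sham, and its part in these calls was not tested. Endothelial genes had 0 of 36 called in limma, a median of 0.12 and marker sums of 5189 to 5510 in TK AngII, 6948 to 7459 in TK Sham, 5265 to 5990 in WT AngII and 7061 to 8069 in WT Sham. Lists of the clock, glycolysis, interferon and antigen presentation, heat shock and ER stress, muscle atrophy and autophagy, and lymphocytes and granulocytes had 0 genes called in limma and medians between -0.26 and 0.17. The sarcomere, endothelial, clock and glycolysis medians were above 0 here and below 0 with scaling to a common median. Relative to the median gene under that scaling, which was at -0.385, they were at 0.24, 0.08, 0.05 and 0.04. In the adipocyte, Schwann cell, epicardial, and atrial and skeletal muscle lists 10, 9, 6 and 9 genes were measured. Of these 1, 1, 2 and 1 were called, all below 0, beside 1.52% of all genes. Krt18, 1 of the 2 called in the epicardial list, met the detection filter only through WT AngII, where it is high. Its call is a description, and it was lost under 6 of the 11 alternatives that tested it. Of the 2 epicardial genes detected on all 12 arrays, 0 were called. The medians of these lists were 0.17, 0.15, -0.15 and -0.48. Of the defining adipocyte markers 0 of 4 were measured, and epicardial, Schwann cell, lymphocyte and granulocyte markers were each measured by at most 2 genes.

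**Figure D3:**
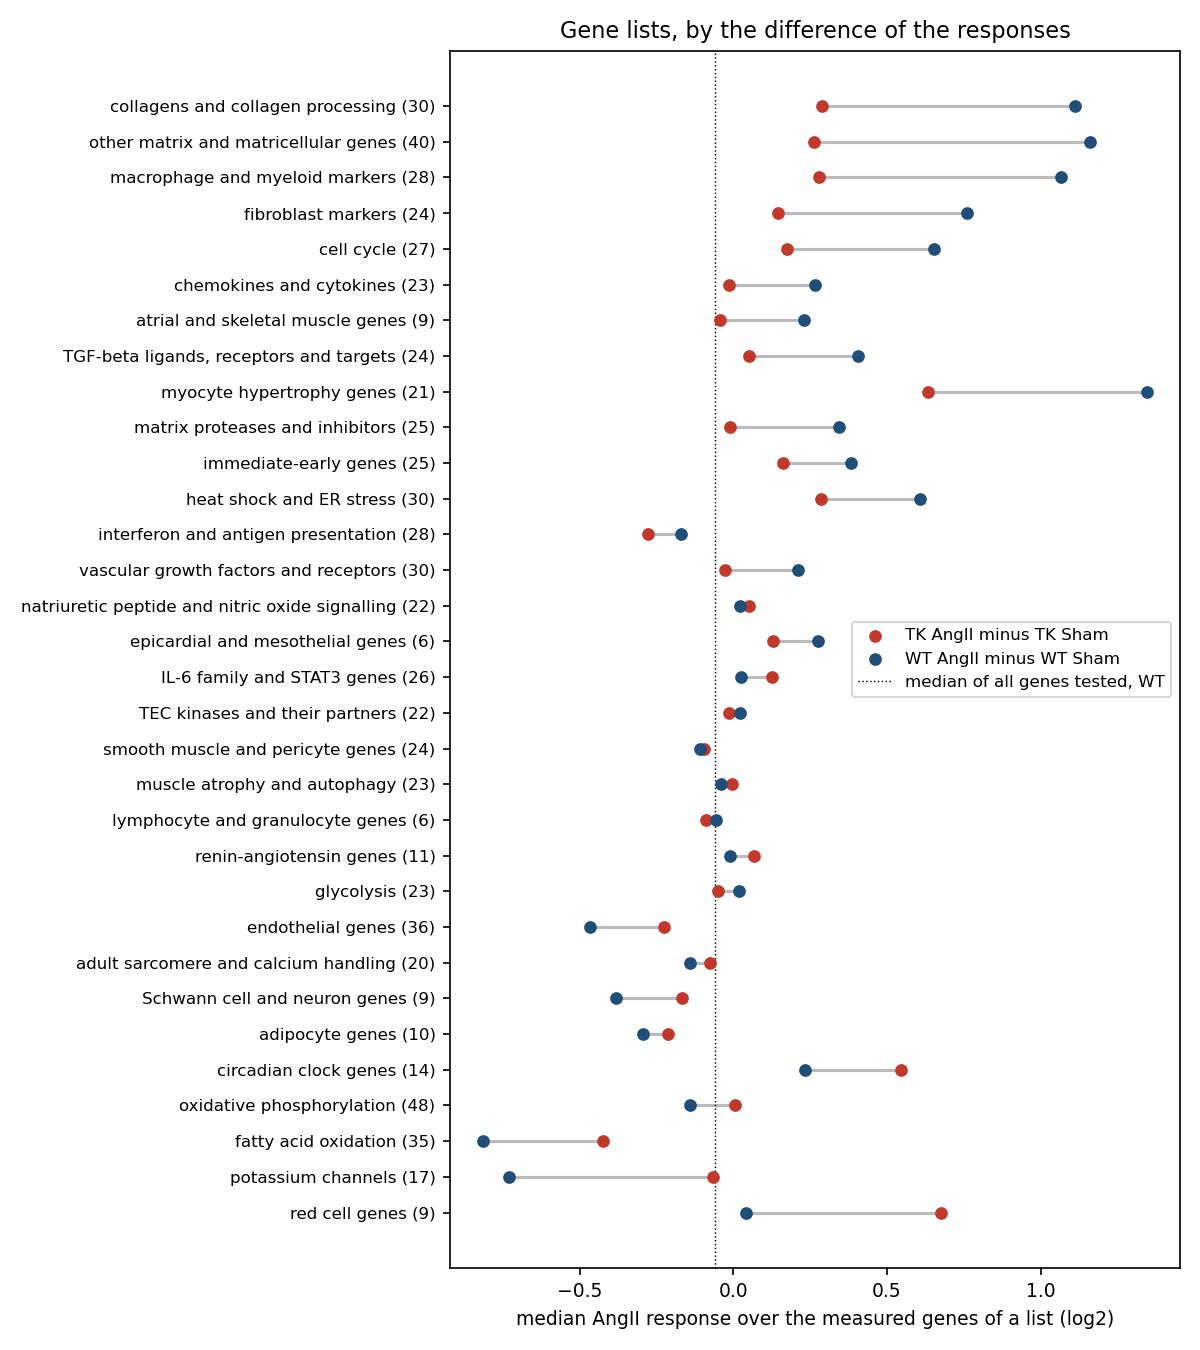
Median AngII response (log2) of 32 gene lists in TK (red) and WT (blue) ventricles, ordered by the median interaction, with the number of measured genes in brackets and the WT median of all genes dotted. In the collagen list the TK median is 0.29 and the WT median 1.11, and in the potassium channel list they are -0.07 and -0.73.

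The plot of list levels by array shows how the arrays within a group differed. The mean level of the collagen list was 8.52, 8.73 and 8.999 on the TK AngII arrays and 8.29, 8.40 and 8.30 on the TK Sham arrays, against 9.63, 10.17 and 9.99 on the WT AngII arrays and 8.49, 8.46 and 8.49 on the WT Sham arrays. Macrophage markers were at 7.03, 7.40 and 7.76 on the TK AngII arrays and 6.92, 6.95 and 7.32 on the TK Sham arrays, against 7.81, 7.76 and 7.88 on the WT AngII arrays and 6.58, 6.85 and 6.78 on the WT Sham arrays. The collagen level separated TK AngII from WT AngII on every array, whereas TK AngII array 3 reached the WT AngII level of the macrophage list. These list levels were described and not tested.

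The alternatives of this paragraph leave out the joint fit of the 24 arrays, which was not checked gene by gene. Of the 71 named genes that were called, 20 that did not depend on WT AngII to pass the filter stayed called under every alternative that tested them and without each array in turn. They were Angptl7, Ckmt1, Clec11a, Col14a1, Col8a1, Comp, Ddah1, Dkk3, Ecrg4, Itgbl1, Lox, Mfap5, Mmp23, Nkd2, Pdgfrl, Ptn, Serpinf1, Sfrp1, Svep1 and Tgfb3. All had an interaction below 0, and 0 of the 71 changed sign under any alternative. None of the named genes above 0 was in this set. Gpt, Itgb6, Smtn, Stk16 and Tuba4a were called without each array in turn and were lost under 1 or 2 alternatives. For each of these genes, scaling to a common median was among the alternatives that lost the call. That scaling moved the median gene to -0.385 and called 763 genes below 0 and 3 above 0. The set therefore does not compare the stability of the 2 directions evenly.

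In C57Bl/6J the corresponding interaction, (KO AngII minus KO Sham) minus (WT AngII minus WT Sham), was called for 6 of 10816 genes (0.0555%), with a smallest adjusted p of 0.000107 for Wdfy1. Of the 206 genes called in Balb/C that were tested in both strains, 197 with the same probe, 136 had the same sign in C57Bl/6J. The share of all genes with the same sign was not computed, so this count does not measure agreement between the strains. In C57Bl/6J the median interactions were -0.17 for collagens, -0.16 for other matrix genes and 0.13 for potassium channels, against 0.01 for all genes. The strains differed for 34 of 9973 genes (0.341%) in a joint limma fit of the 24 arrays, 21 of them also called in Balb/C. Leaving out Balb/C WT AngII array 1 gave 90 genes, and leaving out any other array gave 12 to 40. Ptn had an interaction of -2.90 ± 0.35 in Balb/C and 0.70 ± 0.50 in C57Bl/6J, with an adjusted p of 0.0144 for the difference in limma. Ecrg4 had -0.23 ± 0.41 in C57Bl/6J (limma adjusted p of the difference 0.00422), and Pdgfrl had 0.01 ± 0.27 (0.00422). For Lox, Comp, Angptl7 and Col3a1 the C57Bl/6J values were -0.65, -0.94, -1.10 and 0.02, and the strain difference did not pass in limma (adjusted p = 0.165, 0.45, 0.353 and 0.198). The brightest kept probe of Col3a1 was not the same in the strains, so its values compare different probes. The strains were on arrays normalized separately, so levels are not compared between them.

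**Figure D4:**
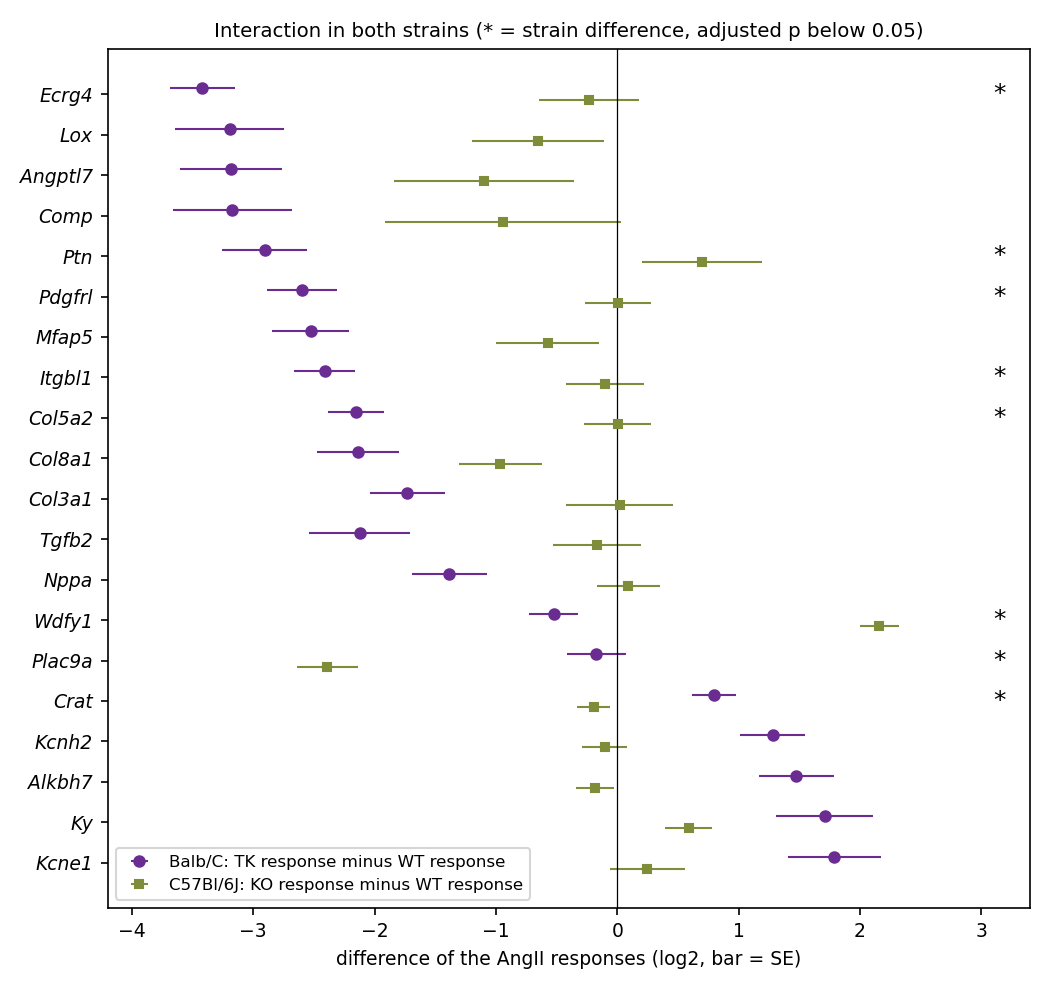
Interaction (log2, with SE) of 20 named genes in Balb/C (circles) and C57Bl/6J (squares), with a star where the strain difference had a limma adjusted p below 0.05. Col3a1 was read by a different probe in each strain. Ptn is at -2.90 in Balb/C and 0.70 in C57Bl/6J, and Ecrg4, Pdgfrl, Itgbl1 and Col5a2 lie near 0 in C57Bl/6J. Ecrg4 and Col5a2 were detected in neither Balb/C Sham group, so their plotted Balb/C differences are not measured sizes. Col5a2 met the detection filter only through WT AngII, where it is high, so its star is a description and not a test.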

How the data were processed

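Left ventricular RNA was measured on Illumina mouse bead arrays, 1 array a sample. The authors' deposited tables give a linear intensity per probe, not normalized, and a detection p-value per probe and array, per the file headers; 313 detection cells on 11 arrays that held a number far above 1 were taken as 1. A deposited table of log2 values, quantile-normalized within each strain by the authors as its values show, served as an alternative. The scanner software is not given in the sources used here. Every data column had a sample (0 without one).

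Background was corrected with normexp from the detection p-values, arrays of a strain were quantile-normalized with an offset of 16 and log2 values taken (R 4.3.3 with limma 3.58.1; figures in Python 3.11.15 with matplotlib 3.10.9). Probes detected at p below 0.05 on at least 3 of 12 arrays were kept, and the brightest stood for its gene; 34885 probes had 1 symbol, 18 several and 10378 none. Group means were fitted with lmFit and eBayes (8 residual degrees of freedom), and p-values were adjusted by Benjamini-Hochberg over all genes, with calls below 0.05. The strain difference came from a joint fit of genes kept in both strains, each strain normalized on its own. Fitting was tested on simulated data.

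Where a probe was detected on no array of a group, a fold is a bound: the bright group's mean against the dim group's mean of, per array, the higher of the lowest detected signal and the probe's own. The number of arrays limits the precision. Named genes were the 15 lowest and 15 highest called interactions among genes detected in every group, up to 4 called members of each of 32 lists by smallest p (or its 2 brightest), up to 5 called genes undetected in a group, a fixed set of heart genes with Bmx, and up to 5 genes of the strain difference. The members and lists were chosen with earlier results of these data known. Alternatives changed background, offset, scaling, detection filter, probe choice, prior, array weights, the replicate block, the joint fit, the deposited values and each array left out.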

Additional observations from a re-analysis of the deposited data

Results flagged for a closer look

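The test of the difference between the strains singled out 34 genes, whose interaction in Balb/C differed from that in C57Bl/6J in the joint limma fit. Balb/C minus C57Bl/6J, the difference on the log2 scale was -3.604 for Ptn, -3.185 for Ecrg4, -2.606 for Pdgfrl, -2.311 for Itgbl1 and -2.153 for Col5a2. It was -1.985 for Slc13a4, -1.411 for Sfrp2 and 0.996 for Crat. Wdfy1 differed by -2.683 and Plac9a by 2.217, and both were called in C57Bl/6J, with interactions of 2.16 and -2.39, and not in Balb/C, where they were -0.52 and -0.17. The probes of Ecrg4, Col5a2, Slc13a4 and Sfrp2 were detected on no Balb/C array of at least 1 group, so their differences are fitted values and not measured sizes. Those of Col5a2, Slc13a4 and Sfrp2 met the detection filter only through WT AngII, where they are high, so their strain differences are given as a description.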

How the results depend on the processing

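The count of 223 genes was 346 in a joint fit of all 24 arrays, 766 with scaling to a common median, 107 with no filter on detection and 718 with array weights, and 74 to 467 without each array in turn. The C57Bl/6J count of 6 was 18 without background correction, 14 with an offset of 50, 12 with detection p below 0.01, with the mean of the kept probes and with a trended prior, 13 with array weights and 17 with the deposited values, and 4 to 8 without each array. The strain difference of 34 genes was 414 with scaling to a common median and 254 with array weights, and 12 to 90 without each array; with alternatives added after seeing the data it was 19 for scaling to the median of the kept probes and 18 for detection on all 12 arrays. The cause of these shifts was not tested. No value of a named gene that was called changed sign, with the joint fit not checked gene by gene. With the replicate number as a block, 263 genes were called in Balb/C, 6 in C57Bl/6J and 22 in the strain difference. Deviations from the group means correlated above 0.1 in 2 of 18 pairs of same-numbered Balb/C arrays (range -0.127 to 0.273). Both pairs held WT AngII array 1, with 0.161 to TK AngII array 1 and 0.273 to TK Sham array 1. With 3 arrays a group these values cannot decide whether the numbers pair the samples. Genes near background in a group have only bounds.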
